A study of Mus musculus with 30 samples.

Results

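The mitochondrial respiratory chain was followed through 75 of the 21689 named genes on a mouse whole genome array, taken by name as those whose symbol starts with Nduf, Uqcr, Sdha to Sdhd, Cox4 to Cox8 or Atp5. By their known place in the chain, 31 belonged to complex I (NADH dehydrogenase), 4 to complex II (succinate dehydrogenase), 6 to complex III (cytochrome bc1 complex), 18 to complex IV (cytochrome c oxidase) and 16 to complex V (ATP synthase). The study asked how the stress-activated protein kinase p38 shapes gene expression in mouse embryonic fibroblasts (MEFs) under different stresses. Immortalised wild type MEFs were given 25 ng/ml anisomycin for 45 min, 100 ng/ml TNFα for 45 min, or 100 mM NaCl for 45 min, 2 h or 8 h. The same 5 stresses were given with SB203580, an inhibitor of p38α and p38β, and 1 group received SB203580 with no stress. Immortalised p38α-/- MEFs were left untreated, or given anisomycin for 45 min, TNFα for 45 min or NaCl for 2 h. Each of the 15 groups held 2 arrays, 30 in all, from independent experiments. The protocol gives SB203580 as 10 µM for 30 min before the stress, whereas the sample titles write 10 mM and 2 h. Each genotype is 1 immortalised cell population, so that the line and the genotype cannot be told apart.

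The sample was always labelled with Cy5 and hybridised against Cy3-labelled RNA pooled from 2 wild type cultures without treatment, with no dye swap and no untreated wild type sample. Each value is the log2 ratio of sample to pool, averaged over the probes of a gene. A difference from the pool also holds any dye preference of the probe and the pool's own level, which cannot be told apart from the treatment. Differences between groups, such as 8 h minus 2 h of NaCl or p38α-/- minus wild type, cancel both. The difference of induction given below does not, since it also subtracts a change from the pool. P-values measure the spread between these arrays alone, with 2 experiments a group, and in bulk RNA fewer cells of a type and less RNA per cell cannot be told apart.

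Complexes I and II take electrons from NADH and succinate and pass them through ubiquinone to complex III, and cytochrome c carries them on to complex IV, where oxygen is reduced. Complexes I, III and IV pump protons across the inner mitochondrial membrane, and complex V makes ATP from the gradient. Most subunits are encoded in the nucleus and a few in mitochondrial DNA, and many nuclear promoters hold sites for nuclear respiratory factor 1 (NRF1) or for GABP, a factor of the ETS family. Several complex IV subunits exist as a ubiquitous form and a tissue form, such as Cox4i1 and Cox4i2. Some names do not show the present assignment. Ndufa4 is now placed in complex IV, Ndufaf1 is an assembly factor of complex I, Cox7a2l acts in joining complexes III and IV, and Atp5s, coupling factor B, now has the symbol Dmac2l.

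The promoters that follow belong to the 6 genes that fell between 2 h and 8 h of NaCl both without and with SB203580, the difference seen in separate cultures. Each window runs from 250 bases before to 50 bases after the annotated start, 5′ to 3′ on the gene's strand, from RefSeq on GRCm38.p6. Capitals mark a match to the palindrome of 10 bases bound by NRF1, read on either strand with any base at its sixth place.
Atp5s (RefSeq symbol Dmac2l), chr12:69724695-69724994, plus strand: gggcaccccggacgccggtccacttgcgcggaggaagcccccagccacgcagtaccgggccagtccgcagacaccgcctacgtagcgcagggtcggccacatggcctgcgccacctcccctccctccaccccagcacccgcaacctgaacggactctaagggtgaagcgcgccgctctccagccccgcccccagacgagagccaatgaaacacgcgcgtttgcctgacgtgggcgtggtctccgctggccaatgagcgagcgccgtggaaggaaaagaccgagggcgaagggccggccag
Ndufa6, chr15:82354242-82354541, minus strand: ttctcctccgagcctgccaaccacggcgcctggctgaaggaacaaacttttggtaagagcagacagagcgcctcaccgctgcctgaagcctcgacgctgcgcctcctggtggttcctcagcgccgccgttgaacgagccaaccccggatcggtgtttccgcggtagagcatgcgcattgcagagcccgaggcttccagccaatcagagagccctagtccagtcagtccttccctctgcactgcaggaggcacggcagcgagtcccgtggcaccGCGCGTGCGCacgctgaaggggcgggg
Ndufc2, chr7:97399753-97400052, plus strand: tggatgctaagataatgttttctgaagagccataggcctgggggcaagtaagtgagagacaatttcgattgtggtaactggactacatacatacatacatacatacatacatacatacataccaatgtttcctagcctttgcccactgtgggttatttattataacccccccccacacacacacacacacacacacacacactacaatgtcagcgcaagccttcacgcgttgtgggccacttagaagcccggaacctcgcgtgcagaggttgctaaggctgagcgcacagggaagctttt
Ndufab1, chr7:122101799-122102098, minus strand: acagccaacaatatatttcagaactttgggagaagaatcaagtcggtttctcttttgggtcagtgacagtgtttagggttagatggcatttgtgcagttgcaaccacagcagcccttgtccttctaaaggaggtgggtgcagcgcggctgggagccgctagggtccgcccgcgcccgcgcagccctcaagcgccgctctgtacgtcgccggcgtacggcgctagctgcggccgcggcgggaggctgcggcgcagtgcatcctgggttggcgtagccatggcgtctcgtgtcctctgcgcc
Ndufb3, chr1:58586147-58586446, plus strand: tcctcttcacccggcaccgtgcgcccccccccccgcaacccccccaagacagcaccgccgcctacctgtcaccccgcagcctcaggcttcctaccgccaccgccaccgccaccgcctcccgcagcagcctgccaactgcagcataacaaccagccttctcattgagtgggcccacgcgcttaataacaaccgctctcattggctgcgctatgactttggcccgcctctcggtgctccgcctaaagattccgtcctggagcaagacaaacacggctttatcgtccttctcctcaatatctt
Atp5g2, chr15:102670998-102671297, minus strand: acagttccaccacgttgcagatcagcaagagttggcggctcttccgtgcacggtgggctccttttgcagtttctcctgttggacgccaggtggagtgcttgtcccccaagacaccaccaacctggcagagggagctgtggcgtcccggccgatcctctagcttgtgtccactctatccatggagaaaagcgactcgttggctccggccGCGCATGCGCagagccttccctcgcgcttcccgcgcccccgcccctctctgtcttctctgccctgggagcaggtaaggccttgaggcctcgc
The match began at base 24 after the start in Ndufa6 and at base -42 in Atp5g2. The windows of Atp5s, Ndufc2, Ndufab1 and Ndufb3 held neither this palindrome nor the ETS core CCGGAAG on either strand.

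Promoter windows were found for 62 of the 75 genes, 57 with 1 window and 5 with more, 67 windows in all. The NRF1 palindrome stood in 17 of them (25.4%), beside 4.60% of the 32851 windows of all genes. The ETS core stood in 16 (23.9%), beside 8.86%, and either motif in 29 (43.3%), beside 12.6%. Both strands were read, the motifs can overlap by no more than 1 base, and 4 windows held both. Of the 8 windows of genes that fell between 2 h and 8 h of NaCl without SB203580, 2 held the palindrome and 0 the ETS core. A match is a run of letters and not a measured binding site.

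Spots that the scanner software marked as feature outliers, 6.78% to 44.8% of an array, were left out. This took 19.8% of the 3300 spots of the respiratory chain genes and more than 50% of those of Atp5b (94.4%), Atp5g3 (83.3%), Ndufs3 (83.3%), Sdha (80.0%), Ndufs8 (70.0%), Ndufa10 (66.7%) and Ndufv1 (53.3%). A gene was tested only when every array of the groups compared had measured it, so that 37 of the 75 entered all 7 tests against the pool and 5 entered none. Spots of the 75 genes had a median Cy3 intensity of 5112 to 13704 on an array, beside 846 to 1954 for all spots. Single genes differed widely, with medians over their spots from 322 for Cox8c to 173515 for Uqcrb. Atp5s (531), Ndufab1 (571) and Cox4i2 (444) were dim like Cox8c, below the range for all spots. Mapk14, which encodes p38α, lay between -2.24 and -0.94 on the 6 p38α-/- arrays that measured it and between 0.05 and 1.31 on 16 wild type arrays. The fibroblast markers Col1a1, Col1a2, Col3a1, Vim, Thy1, Pdgfrb, Fn1 and S100a4 were well above background on all 30 arrays, but so were Ptprc of leukocytes, Pecam1 of endothelium and Myh6 of heart muscle, so that this reading did not separate cell types. Scan days followed the replicates: the first wild type arrays were read on day 1, the second wild type and first p38α-/- arrays on day 2, and the second p38α-/- arrays later.

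**Figure D1:**
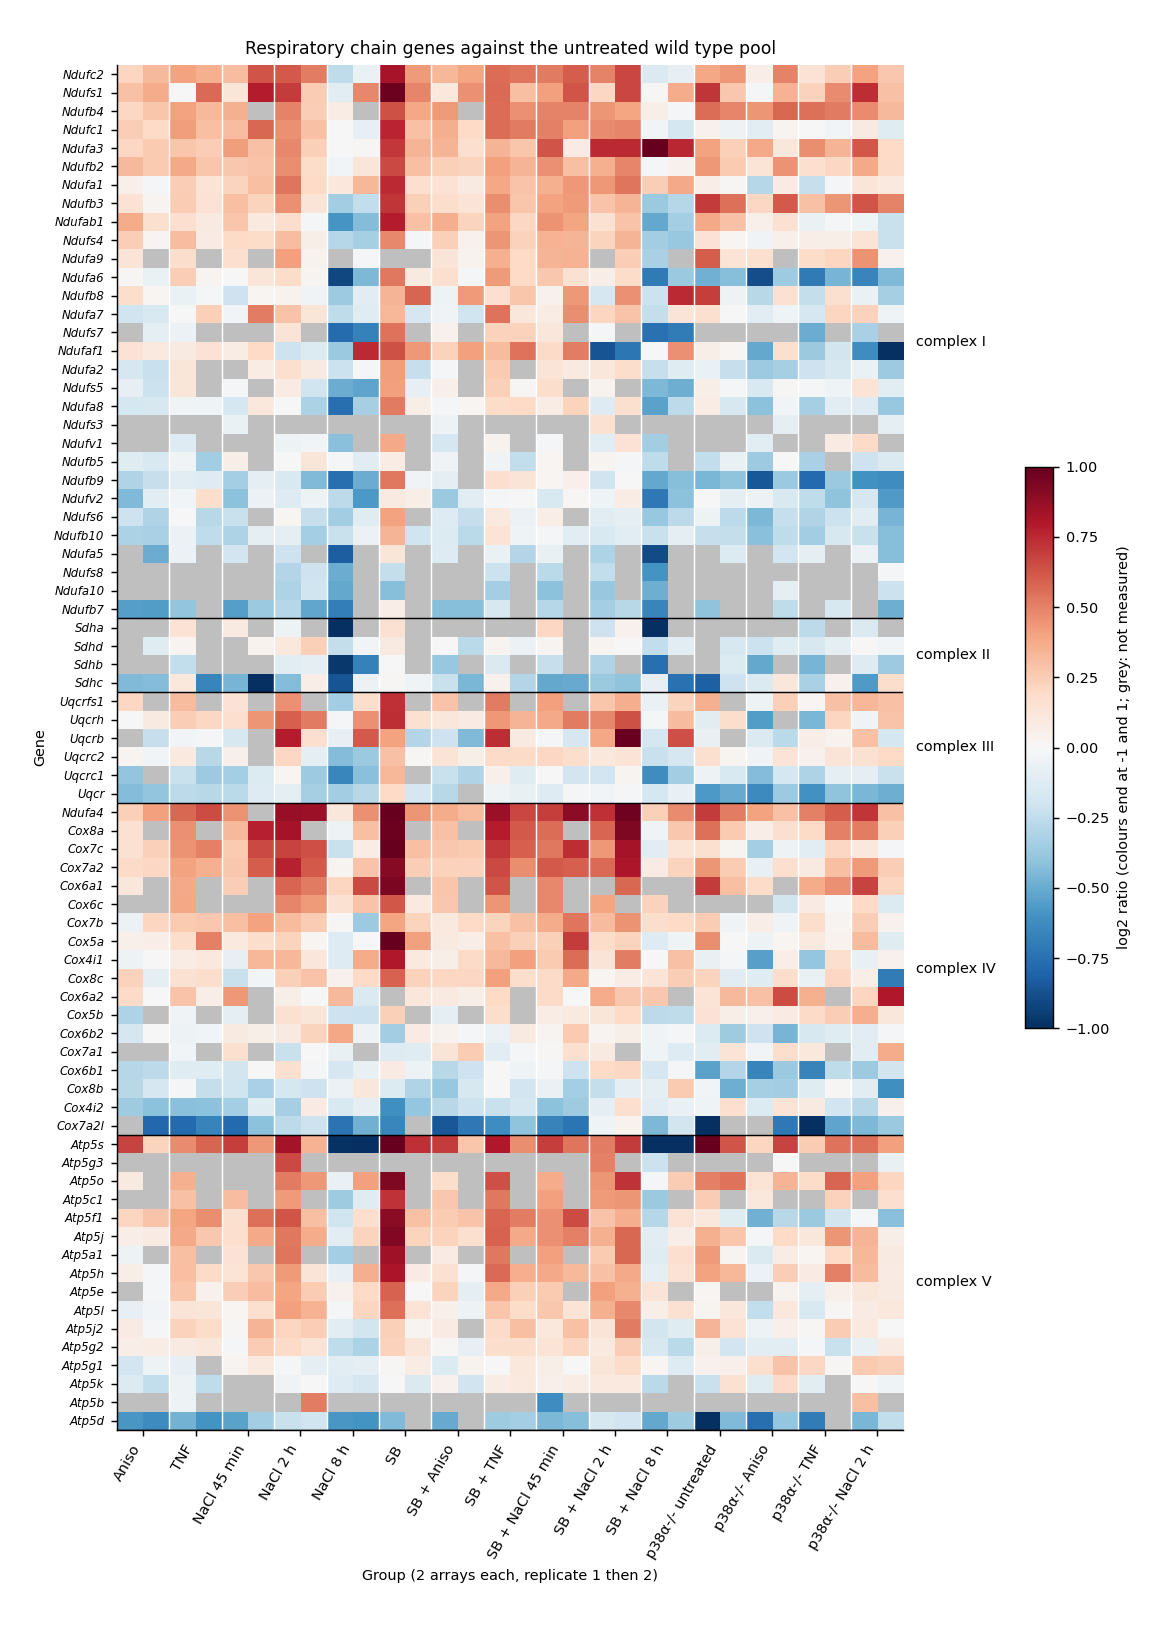
Log2 ratio to the pool of the respiratory chain genes (rows, grouped by complex) on the 30 arrays (columns, 2 per group), in a colour scale that ends at -1 and 1, with grey where no spot was left. Most rows are bluer at 8 h of NaCl than at 2 h, without and with SB203580, and replicate 1 of SB203580 alone is redder than replicate 2.

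Before 8 h the group medians of the genes in wild type MEFs ran from 0.03 under anisomycin to 0.33 with SB203580 alone. Of the 75, 21 were above the pool on every wild type array before 8 h that measured them. Another 5 were below it on every one. These were 18 arrays, those with SB203580 included. Atp5g3 was measured on 2 of them, and the counts were not taken over all genes. Averaged over all arrays that measured a gene, 8 h of NaCl and p38α-/- MEFs included, high means were those of the complex IV subunits Ndufa4 (0.56 over 29 arrays), Cox6a1 (0.45 over 19) and Cox8a (0.43 over 24). Low means were those of Cox7a2l (-0.56 over 26 arrays) and Atp5d, the δ subunit of the ATP synthase head (-0.46 over 27). The arrays behind them differ from gene to gene and probes differ in dye preference, so that these means do not rank the genes. Ndufa4 was above the pool on all 29 arrays that measured it and Atp5d below it on all 27, in every treatment.

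**Figure D2:**
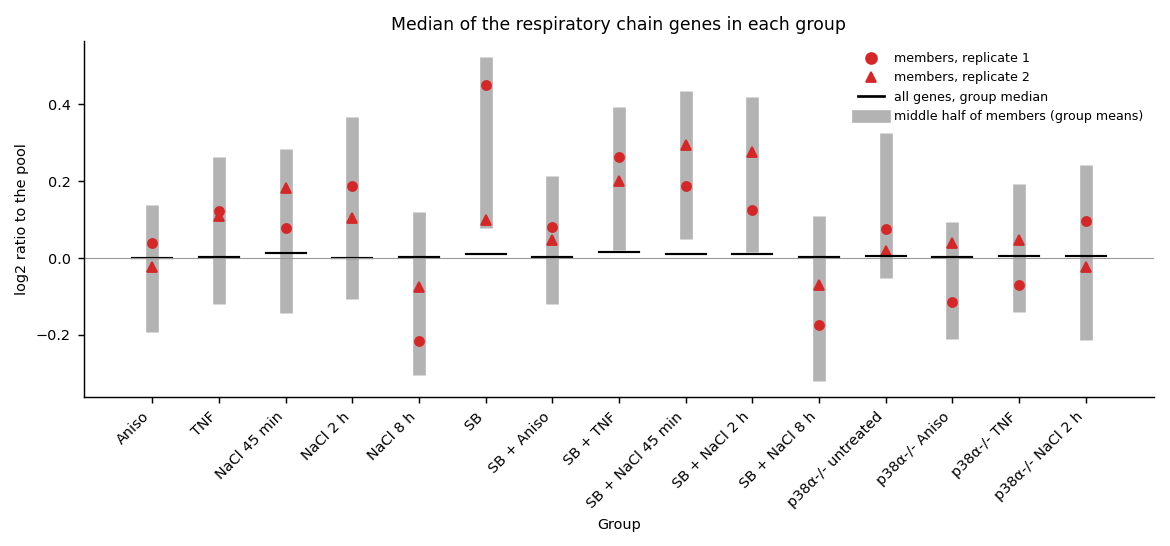
Median log2 ratio of the respiratory chain genes on each array (red, circle for replicate 1 and triangle for replicate 2), the interquartile range of their group means (grey) and the median of all genes (black) in the 15 groups. The red points lie below 0 on both arrays of NaCl 8 h, at -0.22 and -0.07, and of NaCl 8 h with SB203580, at -0.17 and -0.07, while those of SB203580 alone lie apart at 0.45 and 0.10.

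Anisomycin, an inhibitor of protein synthesis that activates p38, gave 4 genes that passed, all below the pool. Of 49 tested, 0 were higher, beside 5.72% of all genes, and 4 lower, beside 6.28%, by limma at a Benjamini-Hochberg adjusted p under 0.05 over all genes. Their median was 0.03 beside 0.00 for all genes, and 7 were higher and 8 lower at an unadjusted p under 0.05, beside 13.8% and 14.5% of all genes. Atp5d read -0.58 and -0.63 on the 2 arrays, a log2 difference from the pool of -0.61 ± 0.12 (SE, adjusted p = 0.00423). The others were Ndufb7, an accessory subunit of complex I (-0.55 ± 0.10), Uqcr, a small subunit of complex III (-0.41 ± 0.09), and Cox4i2 (-0.39 ± 0.11). The count was 1 without replicate 1 of anisomycin, 0 without replicate 2, 7 without either array of SB203580 alone and 9 when replicate numbers were fitted as a block, and 21 of 75 with outlier spots kept and 23 of 75 in the authors' normalised values. Uqcr did not pass after another background correction and scaling, normexp and loess (-0.25).

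TNFα, an inflammatory cytokine, gave 7 higher and 3 lower genes of 49 tested, beside 5.25% higher and 5.72% lower of all genes, and a median of 0.13 beside 0.00. Ndufa4 read 0.57 and 0.65 (0.61 ± 0.13), Atp5s 0.48 and 0.58 (0.53 ± 0.15) and Cox7c, a small membrane subunit of complex IV, 0.45 and 0.50 (0.47 ± 0.14). The other higher genes were the accessory subunits of complex I Ndufc2 (0.38), Ndufb4 (0.36), Ndufc1 (0.36) and Ndufb2 (0.33). Below the pool, Cox7a2l read -0.78 and -0.67 (-0.72 ± 0.12), and Atp5d (-0.54 ± 0.12) and Cox4i2 (-0.42 ± 0.11) followed. The count was 0 without replicate 1 of TNFα and 1 without replicate 2, and 18 of 75 with outlier spots kept and 33 of 75 in the authors' normalised values. Ndufb2 has 2 probes, and by the brighter alone, which is also the one with a curated transcript accession, it was at 0.05 and did not pass.

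NaCl, which stresses cells osmotically, gave 7 higher and 4 lower genes of 44 tested at 45 min, beside 4.69% and 5.19% of all genes, and a median of 0.14 beside 0.01. Above the pool were Atp5s, at 0.69 and 0.43, the complex IV subunits Cox8a (0.55 ± 0.15), Cox7c (0.46 ± 0.14), Cox7a2 (0.44 ± 0.12) and Cox7b (0.35 ± 0.10), and the complex I subunits Ndufc2 (0.47 ± 0.10) and Ndufc1 (0.44 ± 0.10). Below it were Cox7a2l (-0.59 ± 0.12), Ndufb7 (-0.46 ± 0.10), Atp5d (-0.44 ± 0.12) and Sdhc, a membrane anchor of complex II (-0.94 ± 0.24). Sdhc read -0.46 and -1.42 on the 2 arrays and 0.08 in the authors' normalised values, the reverse sign. The count was 3 without replicate 1 of this group and 1 without replicate 2, and 21 of 75 with outlier spots kept and 28 of 75 in the authors' normalised values. The 4 lower genes did not pass with normexp and loess, Cox7b not with outlier spots kept (0.21) and Cox7c not with the scan day as a random block.

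At 2 h of NaCl 13 genes were higher than the pool and 1 lower of 65 tested, beside 5.24% and 4.69% of all genes, and the median was 0.14 beside 0.00. The higher genes were 5 of 28 tested in complex I, 1 of 5 in complex III, 3 of 17 in complex IV and 4 of 12 in complex V. The medians were 0.30 in complex V, 0.16 in complex IV, 0.07 in complex I, 0.06 in complex III and -0.10 over the 3 genes tested in complex II. Ndufa4 read 0.87 and 0.85 (0.86 ± 0.13, adjusted p = 0.000468), the furthest above the pool. Cox7a2 (0.69 ± 0.12) and Cox7c (0.66 ± 0.14) came next, before Atp5s (0.59 ± 0.15), Ndufc2 (0.56 ± 0.10) and Uqcrh, the hinge protein of complex III (0.56 ± 0.16). The stalk and membrane subunits of complex V Atp5f1 (0.47), Atp5j (0.45) and Atp5l (0.38) were higher as well, with Ndufc1, Ndufb4, Ndufa1 and Ndufb2 of complex I between 0.32 and 0.37. The lower gene was Ndufb7 (-0.40 ± 0.10). The count was 1 without replicate 1 of NaCl 2 h and 7 without replicate 2, and 23 of 75 with outlier spots kept and 29 of 75 in the authors' normalised values. Ndufa1 (0.31) and Ndufb2 (0.24) did not pass by their brightest probe, nor did these 2, Atp5f1 and Atp5j with the scan day as a random block and Ndufb7 with normexp and loess (-0.28).

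At 8 h of NaCl the genes that passed all lay below the pool. Of 61 tested, 0 were higher and 15 lower, beside 11% and 11.2% of all genes, and the median was -0.12 beside 0.00. At an unadjusted p under 0.05, 2 were higher and 19 lower, beside 16.1% and 16.7% of all genes. The lower genes were 7 of 22 in complex I, 1 of 3 in complex II, 3 of 6 in complex III, 1 of 17 in complex IV and 3 of 13 in complex V. With both 8 h groups together, 44 of the 75 genes were above the pool on no 8 h array, of 4. On every 8 h array that measured them 10 were above it. Both counts hold Atp5b and Ndufs3, which no 8 h array measured, and were not taken over all genes.

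Atp5s read -0.99 and -1.21 at 8 h, the furthest below the pool (-1.10 ± 0.15, adjusted p = 4.83e-05). Sdhb, the iron-sulphur subunit of complex II, read -0.97 and -0.68 (-0.82 ± 0.12), and Ndufs7, an iron-sulphur subunit of the complex I core, -0.77 and -0.68 (-0.72 ± 0.09). Sdhb was measured on 16 and Ndufs7 on 15 of the 30 arrays, so that their spread rests on few values. In complex I the accessory subunits Ndufa6 (-0.68 ± 0.13), Ndufb9 (-0.62 ± 0.13), Ndufa8 (-0.54 ± 0.13), Ndufab1 (-0.51 ± 0.10) and Ndufs5 (-0.51 ± 0.11) and the core subunit Ndufv2 (-0.42 ± 0.12) were lower. Ndufv2 has 2 probes, and the only 1 measured on both 8 h arrays was at -0.05, so that its 2 array values do not average the same probes. In complex III both large scaffold proteins were lower, Uqcrc1 (-0.54 ± 0.11) and Uqcrc2 (-0.40 ± 0.09), with Uqcr (-0.31 ± 0.09). Cox7a2l (-0.61 ± 0.12), Atp5d (-0.59 ± 0.12) and Atp5g2 (-0.29 ± 0.08) were the others, and Cox7a2l and Atp5d had been below the pool at 45 min too. The count was 4 without replicate 1 of NaCl 8 h, and 26 of 75 with outlier spots kept and 25 of 75 in the authors' normalised values. Atp5g2 (-0.21) and Uqcr (-0.22) did not pass with normexp and loess.

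From 2 h to 8 h of NaCl, a difference free of the pool and the dye, most genes of the chain were lower. No wild type group without NaCl was taken at 8 h. Time in culture and time in NaCl therefore cannot be told apart, without or with SB203580. Of 57 tested, 51 were lower at 8 h (89.5%, beside 51.2% of all genes), with a median difference of -0.30 beside -0.01. By limma 9 fell and 0 rose, beside 4.47% and 3.34% of all genes, and 22 were lower and 0 higher at an unadjusted p under 0.05, beside 10.9% and 8.39% of all genes. The genes that fell were 4 of 21 tested in complex I, 1 of 5 in complex III, 2 of 16 in complex IV and 2 of 12 in complex V.

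Atp5s read 0.84 and 0.34 at 2 h and -0.99 and -1.21 at 8 h, and fell 3.22-fold (-1.69 ± 0.22, adjusted p = 0.000108). Ndufa6, an accessory subunit at the base of complex I, read 0.18 and 0.03 and then -0.91 and -0.45 (-0.78 ± 0.19, adjusted p = 0.0153). Ndufc2, in the membrane arm of complex I, read 0.62 and 0.51 and then -0.25 and -0.07 (-0.72 ± 0.15). In all 9 genes that fell both 8 h arrays were below both 2 h arrays. These arrays also chose the genes, and the share over all genes was not counted. Cox7c read 0.68 and 0.65 and then -0.22 and 0.07 (-0.74 ± 0.20). Ndufab1, the mitochondrial acyl carrier protein, fell by 0.59 (SE 0.14) on the log2 scale, although 1 of its 4 probes had the opposite sign. Ndufb3 fell by 0.59 (SE 0.15), Cox7b by 0.46 (SE 0.14), Uqcrc2 by 0.46 (SE 0.13) and Atp5g2, 1 of 3 genes for the c subunit of the ATP synthase ring, by 0.45 (SE 0.12). Cox7b did not pass when spots with background outlier flags were left out too (-0.08) or by its brightest probe (-0.39). Cox7b, Cox7c and Uqcrc2 did not pass with normexp and loess (-0.33, -0.71 and -0.40), nor Uqcrc2 with outlier spots kept (-0.32).

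The 2 replicates, the first read on day 1 and the second on day 2, differed in the size of this step. In replicate 1 65 of 70 genes measured were lower at 8 h (median -0.45), and in replicate 2 46 of 59 (median -0.14). The differences in replicates 1 and 2 were -1.83 and -1.55 for Atp5s, -1.09 and -0.48 for Ndufa6, and -0.87 and -0.58 for Ndufc2. The count was 2 without replicate 1 of 2 h, 2 without replicate 1 of 8 h and 5 without replicate 2 of 8 h, 14 with the scan day as a random block, and 15 of 75 with outlier spots kept and 25 of 75 in the authors' normalised values.

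The same step was measured in separate cultures that also had SB203580, on arrays that do not enter the difference above, although all arrays share the pool and both steps take their spread from 1 fit over the 30 arrays. There 11 genes fell and 0 rose of 53 tested, beside 3.99% and 3.33% of all genes. At 8 h 48 were lower (90.6%, beside 51.2% of all genes), with a median difference of -0.32. Both sets shared 6 of the genes that fell, 66.7% of the 9 and 54.5% of the 11, and the overlap over all genes was not counted. The 6 were the genes whose promoters are printed above. With the inhibitor they fell as Atp5s -1.64 ± 0.22, Ndufc2 -0.70 ± 0.15, Ndufa6 -0.66 ± 0.19, Ndufab1 -0.64 ± 0.14, Ndufb3 -0.64 ± 0.15 and Atp5g2 -0.39 ± 0.12. With the inhibitor Ndufs4 (-0.65 ± 0.15), Ndufc1 (-0.58 ± 0.14), Ndufv2 (-0.58 ± 0.16) and Ndufb4 (-0.40 ± 0.12) of complex I and Cox5b (-0.42 ± 0.11) of complex IV fell too. Of 49 genes measured on all 8 arrays, 32 were lower at 8 h in each of the 4 replicate differences and 1 was higher in each. The same count was not made over all genes, and genes read on the same arrays move together. The medians with the inhibitor were -0.36 in replicate 1 and -0.32 in replicate 2.

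**Figure D3:**
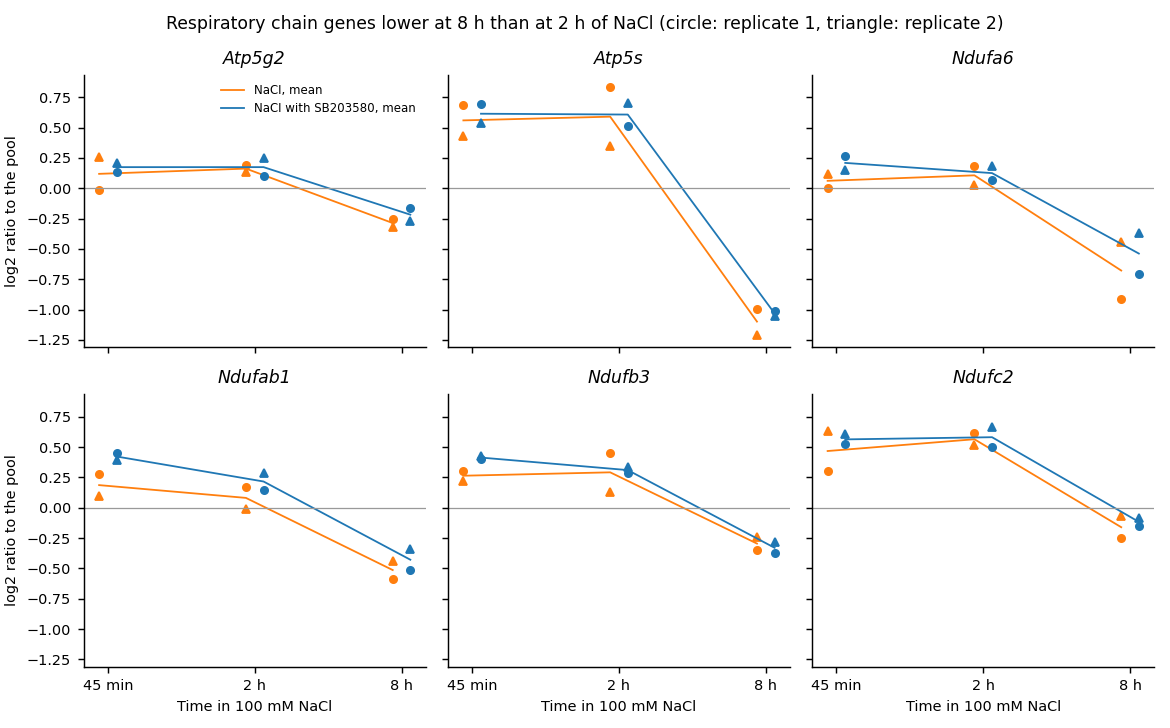
Log2 ratio to the pool (y axis) at 45 min, 2 h and 8 h of NaCl for the 6 genes that fell both without and with SB203580. Points are single arrays (circle for replicate 1, triangle for replicate 2) and lines join the means of 2. In each gene both 8 h arrays lie below both 2 h arrays in either set, and these arrays also chose the genes. Atp5s lies near -1 on all 4 arrays at 8 h.

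**Figure D4:**
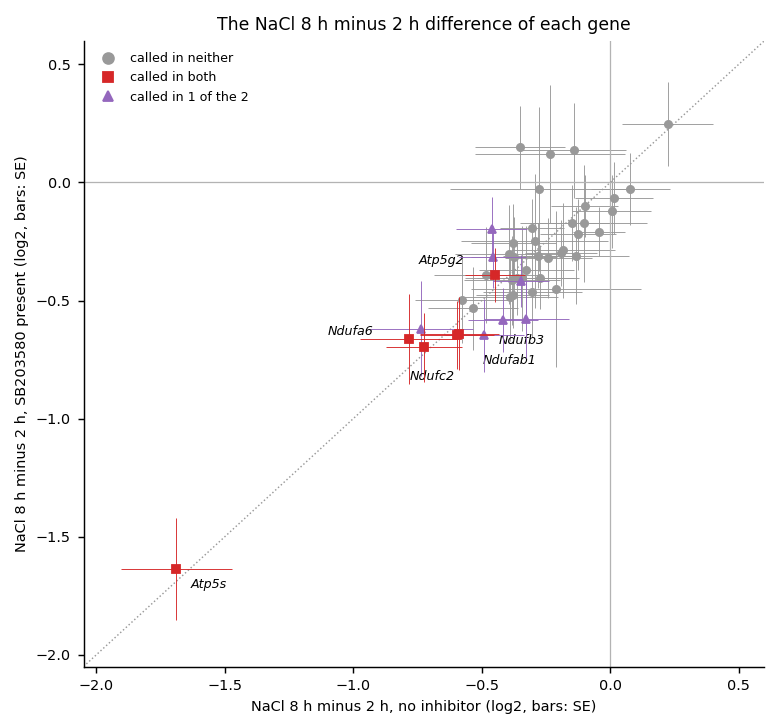
The 8 h minus 2 h log2 difference of the 49 genes tested in both sets, without SB203580 (x axis) and with it (y axis), with bars of 1 SE. In 41 of the 49 both differences are below 0, a count not made over all genes, and Atp5s lies apart at -1.69 and -1.64.

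With SB203580 and no stress most genes of the chain lay above the pool, on 1 array much more than on the other. Of 48 tested, 21 were higher and 1 lower, beside 14.7% and 11.8% of all genes, with a median of 0.33 beside 0.01. The higher genes were 9 of 20 tested in complex I, 1 of 4 in complex III, 6 of 13 in complex IV and 5 of 10 in complex V. Atp5s read 1.06 and 0.73 (0.89 ± 0.15, adjusted p = 0.000689). Ndufa4 read 1.03 and 0.44 (0.74 ± 0.13) and Cox7c 1.01 and 0.30 (0.65 ± 0.14). In these and in the chain as a whole replicate 1 was the higher array, with a median of 0.45 beside 0.10 in replicate 2. Cox5a, a subunit on the matrix side of complex IV, was at 0.75 ± 0.14, and the core subunit Ndufs1, on the peripheral arm of complex I, at 0.73 ± 0.20. Cox4i2 was the lower gene, at -0.61 and -0.39 (-0.50 ± 0.11). The count was 0 without replicate 1 and 39 without replicate 2, with the lone array taken to vary like the other groups, so that it rests on replicate 1. It was 39 of 75 with outlier spots kept and 50 of 75 in the authors' normalised values.

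The effect of SB203580 under stress was asked by setting stressed cultures with it against those without it. Averaged over the 5 stresses, 0 of 34 genes tested were higher and 0 lower by limma, beside 0.00927% and 0.0649% of all genes. At an unadjusted p under 0.05, 2 were higher and 0 lower, beside 2.52% and 2.32% of all genes. The mean difference was above 0 in 33 of the 34 (97.1%, beside 54.0% of all genes), with a median of 0.07 beside 0.01 and a median SE of 0.08. Genes read on the same arrays move together, so that this is not a count of independent genes.

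Within the single stresses 1 of 240 tests passed, Ndufa3 at 8 h of NaCl, beside 0.0465% of the tests of all genes over the 5 stresses. Ndufa3, a small accessory subunit of complex I, read 0.00 and 0.01 without SB203580 and 1.04 and 0.75 with it, a difference of 0.89 ± 0.18 (adjusted p = 0.0421). At 2 h it read 0.48 and 0.24 without and 0.74 and 0.75 with the inhibitor, a difference of 0.39 ± 0.18 that did not pass. Ndufa3 has 2 probes, and by its brightest probe alone the difference at 8 h was 0.19 and did not pass. The call was lost without any 1 of the 4 arrays compared, and the count was 0 as well without any 1 array of anisomycin or TNFα with or without SB203580, of NaCl 45 min without it, of NaCl 2 h with it or of p38α-/- MEFs under TNFα.

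The difference of induction, the change under stress from SB203580 alone minus the change from the pool, passed in 0 of 207 tests of these genes. Of the tests of all genes over the 5 stresses 0.681% passed. At an unadjusted p under 0.05, 16 of 45 genes were lower and 1 higher at NaCl 2 h, beside 10.5% and 8.47% of all genes. Each such difference holds the 2 unlike arrays of SB203580 alone. The pool's level and the dye preference do not cancel in it and enter with the sign turned. At the adjusted threshold the tests that passed went from 0 to 43 without replicate 2 of that group, 1 without replicate 2 of NaCl 2 h and 5 with the replicate block, and 14 of 375 with outlier spots kept and 51 of 375 in the authors' normalised values.

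Untreated p38α-/- MEFs differed from the wild type pool in both directions, with 8 genes higher and 5 lower of 56 tested, beside 8.02% and 6.96% of all genes, and a median of 0.06 beside 0.01. Atp5s read 1.00 and 0.63 (0.81 ± 0.15), Ndufb3 0.70 and 0.55 (0.63 ± 0.11) and Ndufa4 0.70 and 0.51 (0.60 ± 0.13). Ndufb4 (0.52 ± 0.08), Ndufc2 (0.41 ± 0.10), Ndufb2 (0.34 ± 0.10), Ndufab1 (0.34 ± 0.10) and Atp5o, part of the peripheral stalk of complex V (0.53 ± 0.14), were higher too. On the other side Atp5d read -1.05 and -0.44 (-0.74 ± 0.12) and Ndufa6 -0.48 and -0.42 (-0.45 ± 0.13). Uqcr (-0.54 ± 0.09), Ndufb9 (-0.43 ± 0.13) and Cox6b1, on the intermembrane side of complex IV (-0.41 ± 0.10), were the other lower genes. The count was 0 without replicate 1 of this group, and 22 of 75 with outlier spots kept and 26 of 75 in the authors' normalised values. Ndufb2 did not pass by its brighter probe (0.28), and Ndufab1 (0.19), Ndufa6 (-0.23), Ndufb9 (-0.24) and Cox6b1 (-0.22) not with normexp and loess or in the authors' normalised values. Ndufab1 did not pass with its probes of a curated transcript accession (0.22) or its probes well above background (0.19) either.

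Under stress most genes of the chain were lower in p38α-/- than in wild type MEFs. Averaged over anisomycin, TNFα and NaCl 2 h, 33 of 40 tested were lower (82.5%, beside 49.6% of all genes), with a median difference of -0.13 beside 0.00. By limma 6 were lower and 0 higher, beside 4.89% and 3.91% of all genes, and 13 were lower and 3 higher at an unadjusted p under 0.05, beside 12.6% and 12.8% of all genes. The count was 3 without replicate 1 of p38α-/- MEFs under TNFα, and 11 of 75 with outlier spots kept and 17 of 75 in the authors' normalised values.

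Atp5f1, the b subunit of the ATP synthase stalk, read 0.21 and 0.28 in wild type and -0.48 and -0.28 in p38α-/- MEFs under anisomycin. Under TNFα it read 0.39 and 0.47 against -0.37 and -0.18, and at 2 h of NaCl 0.63 and 0.30 against -0.01 and -0.42. Its mean difference was -0.67 ± 0.12 (adjusted p = 0.00134). In Atp5f1, Ndufa6 and Ndufc1, which were chosen by the mean over these same arrays, all 6 p38α-/- arrays were below all 6 wild type arrays. Ndufa6 lay between -0.07 and 0.25 in wild type and between -0.89 and -0.35 in p38α-/- MEFs (-0.66 ± 0.11, adjusted p = 0.000868). Ndufc1, a small accessory subunit of complex I, lay between 0.20 and 0.46 and between -0.12 and 0.09 (-0.34 ± 0.08).

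Cox7c (-0.48 ± 0.12), Ndufb9 (-0.37 ± 0.11) and Cox6b1 (-0.31 ± 0.08) also passed. In each of the 6 genes both p38α-/- arrays were below both wild type arrays in every stress. These arrays also chose the genes, and the share over all genes was not counted. Within single stresses 0 of 152 tests of the chain passed, beside 0.8% of the tests of all genes over the 3 stresses. At an unadjusted p under 0.05, 2, 7 and 7 genes were lower under anisomycin, TNFα and NaCl and 3, 1 and 2 higher. The genes tested were 47, 45 and 60, and of all genes 5.67%, 4.47% and 5.85% were lower and 6.81%, 3.35% and 5.72% higher. At the adjusted threshold the tests that passed went from 0 to 2 without replicate 1 of p38α-/- MEFs under NaCl. The difference of induction, which subtracts the untreated p38α-/- value, passed in 0 of 143 tests, beside 0.319% of those of all genes. At an unadjusted p under 0.05, 16 of 54 genes were lower and 1 higher under NaCl, beside 6.79% and 6.81% of all genes. In this difference too the pool's level and the dye preference do not cancel and enter with the sign turned. At the adjusted threshold the tests that passed went from 0 to 2 with the replicate block and 1 without replicate 2 of untreated p38α-/- MEFs or replicate 1 under NaCl, and 7 of 225 with outlier spots kept and 26 of 225 in the authors' normalised values. In untreated p38α-/- MEFs, where Ndufa6, Ndufb9 and Cox6b1 were already below the pool, Atp5f1 read 0.11 and -0.12, Cox7c 0.16 and 0.03 and Ndufc1 0.05 and -0.05.

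On scan day 2 both genotypes were read, with 1 array of each per stress. Within that day 0 of 46 genes passed, beside 0.942% of all genes, 12 (26.1%) had an unadjusted p under 0.05, beside 18.5%, and the median difference was -0.11 beside 0.02 for all genes. Ndufa6 differed by -0.82, -0.74 and -0.69 under anisomycin, TNFα and NaCl (limma, adjusted p = 0.0522). Atp5f1 differed by -0.76, -0.84 and -0.31. The means of the other 4 genes within the day were -0.58 for Cox7c, -0.47 for Ndufb9, -0.43 for Cox6b1 and -0.27 for Ndufc1, all below 0. The arrays of this day are among those that chose these genes. Their p38α-/- arrays were below their wild type arrays in every stress, so that values below 0 were fixed in advance. This fit has 1 pair of arrays for each stress.

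**Figure D5:**
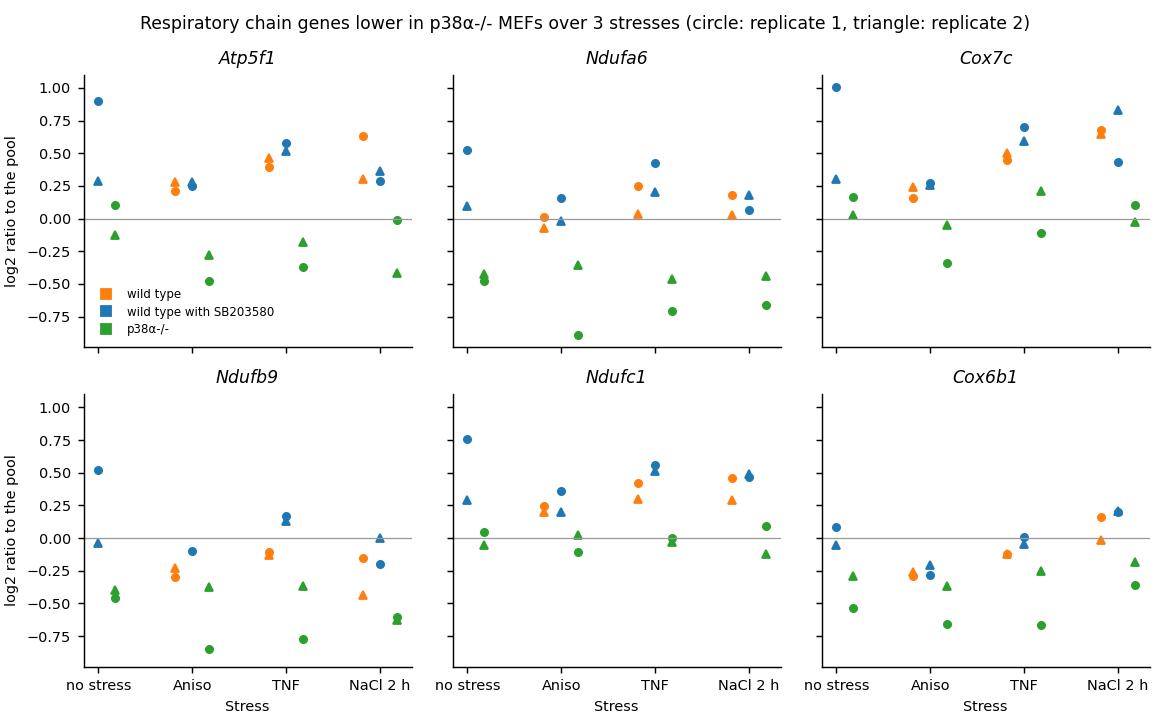
Log2 ratio to the pool (y axis) of the 6 genes lower in p38α-/- than in wild type MEFs over 3 stresses, with wild type MEFs given SB203580 as a further set. Points are single arrays (circle for replicate 1, triangle for replicate 2). In every stress the p38α-/- points lie below those of wild type MEFs without and with SB203580. The genes were chosen from the stressed arrays of p38α-/- MEFs and of wild type MEFs without SB203580.

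In wild type MEFs with SB203580 these 6 genes read higher than in p38α-/- MEFs on every array of the same stress that measured them. Ndufb9 was measured on 1 array under anisomycin with the inhibitor. The genes were chosen for low values on these p38α-/- arrays, which favoured this outcome in advance, and other genes were not counted. Under anisomycin with the inhibitor Atp5f1 read 0.25 and 0.28 and Ndufa6 0.16 and -0.02. Under TNFα with the inhibitor Atp5f1 read 0.58 and 0.51 and Ndufa6 0.42 and 0.20. The difference between inhibitor and knockout was not tested.

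Of the isoforms, the ubiquitous Cox4i1 read 0.80 and 0.10 and the lung form Cox4i2 -0.61 and -0.39 with SB203580 alone. At 8 h of NaCl Cox4i1 read -0.13 and 0.37 and Cox4i2 -0.15 and -0.09. The muscle forms Cox6a2, Cox7a1 and Cox8b passed in no comparison, with means of 0.22 over 25, 0.02 over 23 and -0.18 over 30 arrays. Their ubiquitous counterparts Cox6a1, Cox7a2 and Cox8a had means of 0.45, 0.37 and 0.43, and of these Cox7a2 and Cox8a were higher than the pool in some groups, as given above. Probes differ in their dye preference, so that these means do not rank the isoforms. The testis forms Cox6b2 and Cox8c had means of -0.03 and 0.12, and Cox8c was higher than the pool with SB203580 alone (0.41 ± 0.14), but not with normexp and loess (0.20). Of the genes for the ATP synthase c subunit Atp5g2 fell from 2 h to 8 h of NaCl, Atp5g1 passed in no comparison (mean 0.04 over 29 arrays) and Atp5g3 was measured on 5 arrays.

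Several core and catalytic subunits lost many of their spots and were measured on few arrays. Atp5b, which carries the catalytic site of ATP synthase, was measured on 4 arrays, Ndufs3 on 5, Ndufs8 on 9 and Sdha, the flavoprotein of complex II, on 11. Ndufv1, which binds NADH, was measured on 14 arrays with a mean of -0.04, and Atp5a1 on 21 with a mean of 0.21. Ndufs1, the largest subunit of complex I, was measured on all 30 and lay above the pool on 27 of them. Uqcrc1 lay above the pool on 4 of 28 arrays and Uqcrfs1, the Rieske protein of complex III, on 18 of 21. Sdhc and Sdhd, the membrane anchors of complex II, were above it on 7 of 30 and 9 of 24. Atp5c1, the γ subunit, was above it on 13 of 16.

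The array lists 9 further subunits under older names, which the naming rule misses. At 2 h of NaCl 2 of 9 tested were higher than the pool and 0 lower, beside 5.24% and 4.69% of all genes. They were Atp5mpl (0.87 ± 0.10) and Atp5md (0.84 ± 0.13), both small membrane subunits of complex V. At 8 h 2 were higher and 1 lower, beside 11% and 11.2% of all genes, Atp5mpl at 0.46 ± 0.10, Atp5md at 0.48 ± 0.13 and Ndufv3 at -0.36 ± 0.11. From 2 h to 8 h 0 rose and 0 fell, beside 3.34% and 4.47% of all genes, with a median of -0.28. In the other groups set against the pool 2 to 4 were higher and 0 or 1 lower, beside 4.69% to 14.7% and 5.19% to 11.8% of all genes.

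Genes that build the complexes or feed them were counted from lists of known genes. Over the step from 2 h to 8 h of NaCl 4.47% of all genes fell and 3.34% rose. From 2 h to 8 h of NaCl 1 of 9 complex I assembly factors tested rose, Ndufaf4 (0.62 ± 0.16), and 2 fell, Ndufaf3 (-1.30 ± 0.33) and Tmem126b (-0.68 ± 0.17). Sdhaf4, the 1 assembly factor of complex II tested, fell (-0.77 ± 0.11), as did 1 of 2 of complex V, Atpaf2 (-0.69 ± 0.15). Of the assembly factors of complex III 0 of 3 fell and 0 rose (median 0.10), of those of complex IV 0 of 8 and 0 (median -0.13), and of the ATP synthase inhibitor and ADP exchange genes 0 of 5 and 0 (median -0.31). Of the electron carriers and enzymes that make ubiquinone, 1 of 8 fell, Coq7 (-0.96 ± 0.27). In the citric acid cycle, which supplies NADH and succinate, 4 of 8 fell and 0 rose. They were Dld (-1.27 ± 0.35), Fh1 (-0.82 ± 0.18), Idh3g (-0.75 ± 0.17) and Suclg2 (-0.60 ± 0.15).

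Of the nuclear regulators of respiratory genes 2 of 11 rose and 0 fell over the same step, beside 3.34% and 4.47% of all genes. Tfb2m, a transcription factor for mitochondrial DNA, rose by 0.85 ± 0.15 and Gabpa, the DNA-binding subunit of GABP, by 0.55 ± 0.14. Against the pool at 8 h 5 of 12 were higher, beside 11% of all genes, with Tfb2m at 1.31 ± 0.11, Yy1 at 0.96 ± 0.12, the PGC-1 related coactivator Pprc1 at 0.94 ± 0.21, Gabpa at 0.59 ± 0.10 and Gabpb1 at 0.57 ± 0.11. In the other 6 groups 0 to 3 were higher, beside 4.69% to 14.7% of all genes. In stressed p38α-/- MEFs 2 of 9 regulators tested, Tfb2m (0.40 ± 0.09) and Gabpa (0.38 ± 0.08), were higher than in wild type, and 1, Ppargc1b (-0.30 ± 0.08), lower. Of all genes 3.91% were higher and 4.89% lower. Atpif1, the inhibitor protein of ATP synthase (-0.67 ± 0.13), was lower, 1 of 4 tested in its list. Of 7 electron carriers and ubiquinone makers tested, 1 was higher there, Coq5 (0.46 ± 0.09), and 1 lower, Etfdh, which passes electrons to ubiquinone (-0.58 ± 0.16). Cox16 (-0.35 ± 0.10) was lower, 1 of 7 tested in complex IV assembly. In the citric acid cycle 2 of 4 tested were lower, Suclg2 (-0.38 ± 0.09) and Sucla2 (-0.30 ± 0.09). Of 13 respiratory genes in mitochondrial DNA 4 were on the array. At 2 h of NaCl 3 of 3 tested were higher than the pool, beside 5.24% of all genes, with a median of 1.28. At 8 h 3 of 4 were higher, beside 11% of all genes, with a median of 0.91. Genes among them were also higher in the other groups, 4 of 4 at 45 min of NaCl (median 1.14), 3 of 3 under TNFα, 3 of 3 with SB203580 alone (1.24), 2 of 4 in untreated p38α-/- MEFs (0.71) and 1 of 4 under anisomycin (0.69). Of all genes 4.69% to 14.7% were higher in these groups. From 2 h to 8 h 0 of 3 fell and 0 rose.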

How the data were processed

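RNA was amplified in 2 rounds and hybridised on 2-colour Agilent arrays. The deposited scanner files hold, per spot, the Cy5 and Cy3 intensity and the authors' log10 ratio of processed signals, and the deposited series values are the authors' normalised log2 ratios. The submitters' notes name Agilent Feature Extraction 9.1, and the file headers give another version, 8.1.1.1. The log10 ratios were turned into log2 ratios, feature outliers left out, and spots averaged to probes and probes to genes. A mean per group was fitted over all 30 arrays with limma 3.58.1 (R 4.3.3) and adjusted by Benjamini-Hochberg over all genes tested. The code was tested on simulated data. Replicate numbers pair arrays within a genotype, since deviations from the group means correlated above 0.1 in all 55 wild type pairs (0.13 to 0.65) and all 6 p38α-/- pairs (0.15 to 0.45). Genes were named where they passed, at most the 25 with the largest difference, with isoform pairs, core subunits and the 3 highest and lowest means, and 1 gene is not reported here. Members, gene lists and promoters shown were chosen with earlier results of these data known. Alternatives changed outlier and background handling, normalisation (normexp offset 50), probes, blocks, centring, threshold and arrays.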

Additional observations from a re-analysis of the deposited data

How the results depend on the processing

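Counts of genes passing moved by more than 1.5 times under the following alternatives, with those not named within that bound. Keeping spots marked as feature outliers gave 21 genes for anisomycin, 18 for TNFα, 21, 23 and 26 for NaCl at 45 min, 2 h and 8 h, 39 for SB203580 alone, 22 for untreated p38α-/- MEFs, 15 for 8 h minus 2 h and 11 for the mean p38α-/- difference. It gave 14 tests for the SB203580 and 7 for the p38α-/- difference of induction. The authors' normalised values gave 23, 33, 28, 29, 25, 50, 26, 25 and 17 in the same order, and 51 and 26 for the differences of induction. With normexp and loess the counts were 9 for anisomycin, 16 for TNFα, 34 for SB203580 alone, and 8 and 2 for the differences of induction. The brightest probe of each gene gave 7 for anisomycin and 3 and 1 for the differences of induction, and probes well above background gave 8 for anisomycin and 2 for the SB203580 difference of induction. The cause was not tested. SB203580 within single stresses gave 0 with outlier spots kept, with background outliers left out too, with the authors' values, with the brightest probe, with probes of a curated transcript accession alone, at an adjusted p under 0.01 and at 2.5-fold.

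With the replicate block, 9 genes passed for anisomycin, and the differences of induction passed in 5 tests with SB203580 and in 2 in p38α-/- MEFs; it changed no call of the 105 single differences. The scan day as a random block gave 14 for 8 h minus 2 h and 2 for the SB203580 difference of induction. An adjusted p under 0.01 left 3 for TNFα, 3 and 4 for NaCl at 45 min and 2 h, 7 for untreated p38α-/- MEFs, 2 for 8 h minus 2 h and 3 for the mean p38α-/- difference. A mean of 2.5-fold left 1 gene, Atp5s, for 8 h minus 2 h both without and with SB203580, and 0 in the other comparisons. Of the alternatives chosen after seeing the data, scan day 2 alone gave 0 for the mean p38α-/- difference, and the arrays with SB203580 gave 11 for 8 h minus 2 h.

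Leaving out 1 array at a time gave 0 to 7 genes for anisomycin, 0 to 13 for TNFα, 1 to 12, 1 to 17 and 4 to 17 for NaCl at 45 min, 2 h and 8 h, 0 to 39 for SB203580 alone, 0 to 16 for untreated p38α-/- MEFs, 2 to 13 for 8 h minus 2 h, 0 to 0 for the mean SB203580 effect and 3 to 7 for the mean p38α-/- difference. It gave 0 to 1 for SB203580 and 0 to 2 for p38α-/- within stresses, and 0 to 43 and 0 to 1 for the differences of induction. Of the single differences 163 of 290 such fits lost the call and 0 changed sign. Over all settings and left-out arrays, of the refits of the 105 single differences 1098 kept the call, 216 lost it and 1 reversed, Sdhc at 45 min of NaCl, which was 0.08 in the authors' values. The number of arrays, 2 a group, limits the precision.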
